A study of Mus musculus with 4 samples.

Results

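Open chromatin in mouse dermal fibroblasts was examined at 10 genes of the contractile and actin-binding apparatus of myofibroblasts: Acta2, Tagln, Tpm1, Tpm2, Cnn1, Cnn2, Myl9, Actn1, Actn4 and Srf. They are 10 of 21896 protein-coding genes in the gene table, and every deposited peak whose midpoint lay inside one of them or within 50000 bp was taken. This gave 424 of 585165 peaks in Sod2-/- fibroblasts, 400 of 433013 in their Sod2+/+ control, 303 of 347438 in rotenone-treated Sod2+/+ fibroblasts and 323 of 340240 in vehicle-treated Sod2+/+ fibroblasts. All cells came from C57BL/6 mice, and all sample titles carry 100 days without saying what the days count. The Sod2-/- sample is labelled as a conditional knockout of the mitochondrial superoxide dismutase, and the promoter that drove the deletion is not given in the labels. Rotenone, an inhibitor of respiratory complex I, is labelled at 250 µM, a value that these data cannot check. Each group had 1 library, so no difference below has a replicate error or a p-value, and whether the cells of a library came from 1 or several animals is not given in the labels.

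Myofibroblasts are fibroblasts that have taken up a contractile programme during wound repair and fibrosis. Their stress fibres are bundles of actin filaments, which myosin pulls on and tropomyosins and calponins coat, and which α-actinins hold together. Serum response factor, encoded by Srf, binds the CArG box, an A/T-rich site flanked by CC and GG, and switches on many of these genes when its cofactors, the myocardin-related factors, are released from monomeric actin. ATAC-seq reads out where the Tn5 transposase can insert adapters into DNA, so a peak marks accessible chromatin and not the amount of transcript.

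The libraries differed as a whole. The fold enrichment used below is the authors' value for each peak over the local background of its own library. Among the 30000 peaks with the highest −log10 p in each list, called strong here, the median fold was 5.49 in Sod2-/- cells and 6.78 in the control, and 5.99 with rotenone and 7.13 with vehicle. Read depth is unknown. A fold or rank is therefore a description of the peak within its library, and the same measure over all genes is given beside each count for the 10 genes. In a bulk library, fewer cells of a type and less accessible chromatin per cell cannot be told apart.

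A peak at the gene start could be examined for 9 of the 10 genes, through the RefSeq table of GRCm38.p6 promoters, the assembly behind mm10, which runs from 250 bases before to 50 bases after the start. Tagln has no entry there. The promoters printed here are those of Tpm1 and Actn4, whose start peaks were gained in Sod2-/- cells, of Tpm2, whose start peak was wider there and with rotenone, and of Srf, Acta2 and Myl9, which hold CArG boxes. They read 5′ to 3′ on the gene's strand, and capitals mark a CArG box, an AP-1 site (TGANTCA) or a TEAD site (GGAATG on either strand).
Tpm1 (chr9:67049164-67049463, minus strand): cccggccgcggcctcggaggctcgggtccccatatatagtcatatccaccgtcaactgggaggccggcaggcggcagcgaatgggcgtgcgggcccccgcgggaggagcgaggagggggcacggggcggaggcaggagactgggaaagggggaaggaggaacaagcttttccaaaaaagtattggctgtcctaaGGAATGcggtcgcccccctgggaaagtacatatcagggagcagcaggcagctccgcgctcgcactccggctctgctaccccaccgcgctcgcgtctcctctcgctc
Actn4 (chr7:28962283-28962582, minus strand): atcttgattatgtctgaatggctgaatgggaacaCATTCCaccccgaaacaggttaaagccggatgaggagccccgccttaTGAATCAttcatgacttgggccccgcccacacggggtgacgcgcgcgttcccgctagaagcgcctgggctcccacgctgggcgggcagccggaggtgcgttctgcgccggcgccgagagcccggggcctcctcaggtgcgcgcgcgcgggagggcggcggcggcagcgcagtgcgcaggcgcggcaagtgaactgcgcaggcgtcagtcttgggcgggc
Tpm2 (chr4:43523505-43523804, minus strand): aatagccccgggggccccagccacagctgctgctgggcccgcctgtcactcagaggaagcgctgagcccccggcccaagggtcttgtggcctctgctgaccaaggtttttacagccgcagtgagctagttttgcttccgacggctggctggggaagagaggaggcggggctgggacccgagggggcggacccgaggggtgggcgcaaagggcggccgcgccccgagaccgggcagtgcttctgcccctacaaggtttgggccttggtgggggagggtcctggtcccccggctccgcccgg
Srf (chr17:46556113-46556412, minus strand): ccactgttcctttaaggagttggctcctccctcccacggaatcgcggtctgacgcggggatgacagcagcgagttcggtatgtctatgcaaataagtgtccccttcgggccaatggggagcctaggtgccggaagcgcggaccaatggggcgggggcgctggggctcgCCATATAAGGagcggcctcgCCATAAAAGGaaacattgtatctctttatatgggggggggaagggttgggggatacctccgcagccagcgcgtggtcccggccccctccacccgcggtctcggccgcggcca
Acta2 (chr19:34255324-34255623, minus strand): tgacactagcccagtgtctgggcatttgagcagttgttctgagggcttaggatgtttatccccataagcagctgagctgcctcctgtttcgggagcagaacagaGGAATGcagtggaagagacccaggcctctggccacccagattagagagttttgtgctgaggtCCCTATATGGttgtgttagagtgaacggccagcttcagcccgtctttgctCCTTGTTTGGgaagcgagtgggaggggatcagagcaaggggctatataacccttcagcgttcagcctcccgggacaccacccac
Myl9 (chr2:156775214-156775513, plus strand): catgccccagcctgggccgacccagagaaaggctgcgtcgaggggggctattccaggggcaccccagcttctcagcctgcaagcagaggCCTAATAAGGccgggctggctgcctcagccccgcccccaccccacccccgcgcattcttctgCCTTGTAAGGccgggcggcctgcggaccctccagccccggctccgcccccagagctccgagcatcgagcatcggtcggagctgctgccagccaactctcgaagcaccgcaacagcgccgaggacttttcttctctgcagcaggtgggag
No marked site overlapped another. The Srf promoter holds 2 exact CArG boxes, which begin 82 and 62 bases upstream of the start, so the gene carries the site that its own product binds. Myl9 holds an exact one 161 bases upstream. Cnn2 holds one 56 bases upstream. An exact box occurred in 1.54% of all 17491 gene promoters. Acta2, whose boxes each have a C or G among the inner 6 bases, holds 2 such looser boxes, 84 and 34 bases upstream, and Myl9 holds another 99 bases upstream. Exact and looser boxes together occurred in 9.78% of promoters and in 4 of the 9 examined here. Neither Tpm1 nor Actn4 has a box of either kind in this window. Actn4 is the only one of the 9 with the AP-1 letters, 169 bases upstream, found in 7.08% of all promoters. The TEAD letters lie in Tpm1, Actn4 and Acta2 and in 13.4% of all promoters. The SP/KLF letters GGGCGG lie in 7 of the 9 and in 46.3% of all. All motifs were searched on both strands.

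Start peaks of several genes, the tropomyosins and α-actinin-4 among them, stood higher in Sod2-/- cells than in the control and higher with rotenone than with vehicle. Of the 8 genes with a start peak in all 4 libraries, 5 had a higher fold in both comparisons (Tpm1, Tpm2, Cnn1, Myl9 and Actn4), and 2 had a lower fold in both (Acta2 and Actn1). Over all 8956 gene starts with a peak in all 4 libraries, 12.6% were higher in both comparisons and 61.1% were lower in both. The median fold of the 8 genes was 4.57 in Sod2-/- cells and 3.51 in the control, and 5.11 with rotenone and 4.24 with vehicle. The median start peak of all 8956 genes had a fold of 5.11 in Sod2-/- cells and 6.16 in the control, and 5.65 with rotenone and 6.47 with vehicle. The 8 genes thus had a lower median than all starts in every library. Starts were not matched for fold, and the part of the starting level in these counts was not tested.

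**Figure D1:**
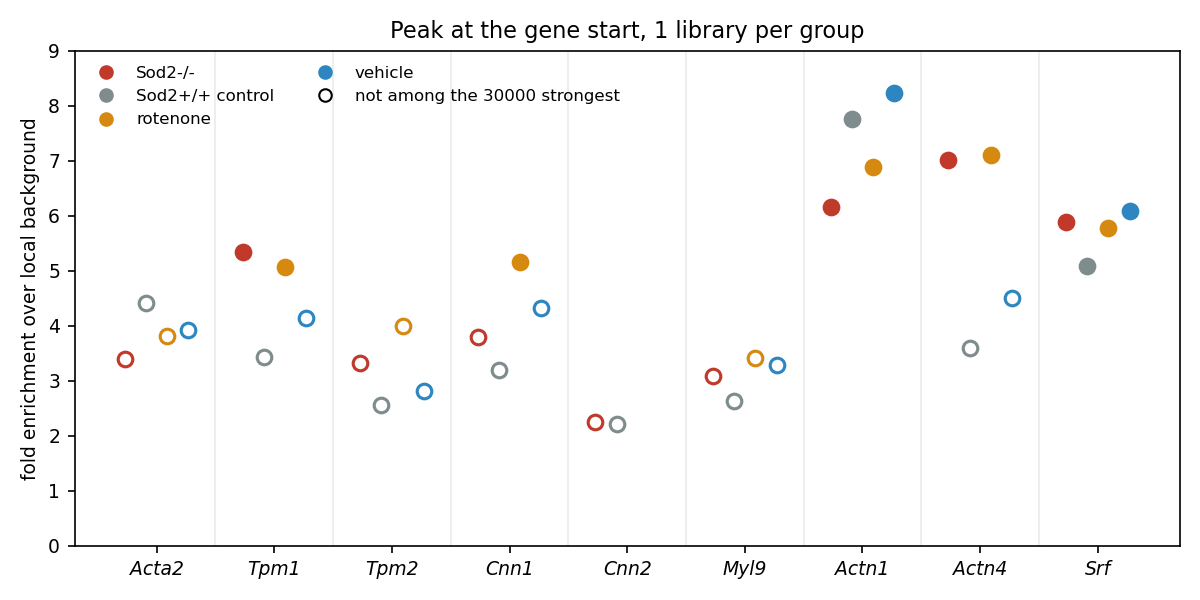
Fold enrichment (y axis) of the peak at the gene start of 9 genes (x axis), 1 point per library; filled points are among the 30000 strongest peaks of their library. Actn4 shows the widest gap, with folds of 7.01 in Sod2-/- cells and 7.11 with rotenone. Actn1 is lower in both comparisons, as are 61.1% of all starts with a peak in all 4 libraries.

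Actn4 encodes α-actinin-4, a crosslinker of actin filaments. Its start peak, at chromosome 7, 28962171-28962652 in Sod2-/- cells, had a fold of 7.01 there and 3.60 in the control, and of 7.11 with rotenone and 4.50 with vehicle. Both higher values ranked among the strongest peaks of their lists, at 8833 in Sod2-/- cells and 10327 with rotenone, against ranks of 65351 in the control and 47345 with vehicle. The width varied less, at 482 bp in Sod2-/- cells and 464 bp in the control, and 466 bp with rotenone and 398 bp with vehicle. The peak covered the whole promoter printed above, AP-1 and TEAD letters included, in all 4 libraries.

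Actn1, which encodes the related crosslinker α-actinin-1, had a strong start peak in every library and no such gap. Its fold was 6.16 in Sod2-/- cells and 7.76 in the control, and 6.89 with rotenone and 8.22 with vehicle. The peak was also narrower in the lower libraries, at 553 bp in Sod2-/- cells and 725 bp in the control, and 395 bp with rotenone and 762 bp with vehicle. Narrower peaks there were general. The median width over all 8956 starts was 389 bp in Sod2-/- cells and 527 bp in the control, and 402 bp with rotenone and 493 bp with vehicle. Both α-actinin genes therefore had start peaks of similar fold in Sod2-/- cells and with rotenone, and of very different fold in the control and vehicle libraries.

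The tropomyosins, encoded by Tpm1 and Tpm2, wind along actin filaments and govern the access of myosin. At the start of Tpm1, where the Sod2-/- peak spans 67049141-67049628 of chromosome 9, the fold was 5.34 in Sod2-/- cells and 3.43 in the control, and 5.07 with rotenone and 4.15 with vehicle. The peak was strong in Sod2-/- cells (rank 15857) and with rotenone (rank 24454) and not in the control (rank 72372) or with vehicle (rank 54282). A second peak inside Tpm1, centred 5326 bp downstream of the start, had a fold of 5.89 in Sod2-/- cells and 5.23 in the control, and 5.79 with rotenone and 4.92 with vehicle. In the control it ranked 30753, just outside the strong list.

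Tpm2 had a weaker start peak in all libraries, with a fold of 3.32 in Sod2-/- cells and 2.56 in the control, and 4.00 with rotenone and 2.82 with vehicle. Its width differed more than its fold, at 401 bp in Sod2-/- cells and 162 bp in the control, and 364 bp with rotenone and 75 bp with vehicle. In Sod2-/- cells and with rotenone the peak reached 285 and 248 bp upstream of the start. In the control it reached 59 bp upstream, and with vehicle it began 9 bp downstream. Inside the gene, 1054 bp downstream of the start, a strong region had a fold of 6.82 in Sod2-/- cells and 6.98 in the control, and 7.30 with rotenone and 6.47 with vehicle. Another strong region in all libraries was centred 20814 bp from the gene, at chromosome 4, 43492722-43493103, and 453 bp from the start of Ccdc107. Its fold was 9.40 in Sod2-/- cells and 9.39 in the control, and 10.5 with rotenone and 8.99 with vehicle.

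**Figure D2:**
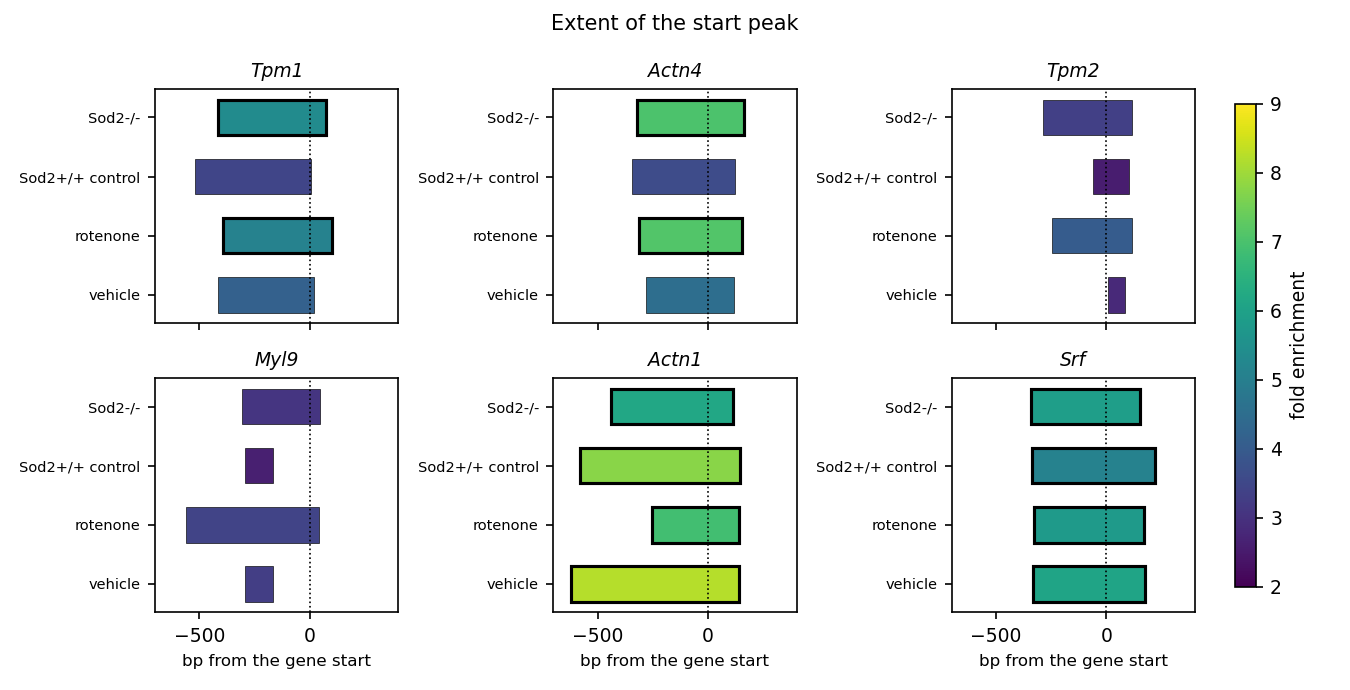
Extent of the start peak in bp from the gene start (x axis, dotted line at the start, upstream to the left) for 6 genes in the 4 libraries, coloured by fold enrichment; thick outlines mark the 30000 strongest peaks. Tpm2 and Myl9 have broader peaks in Sod2-/- cells and with rotenone. Actn1 has narrower ones, as has the median of all starts, and Actn4 keeps its extent while its colour changes.

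Myl9 encodes the regulatory light chain of non-muscle and smooth muscle myosin, whose phosphorylation turns the motor on. Its start peak was weak, with a fold of 3.09 in Sod2-/- cells and 2.63 in the control, and 3.41 with rotenone and 3.28 with vehicle. As at Tpm2 it was broader in Sod2-/- cells and with rotenone, at 353 bp in Sod2-/- cells and 124 bp in the control, and 601 bp with rotenone and 126 bp with vehicle. The 2 narrow peaks ended 170 bp upstream of the start in the control and 168 bp upstream with vehicle, whereas the broad ones ran across the start. Only the best ranked peak at each start was taken. Whether another peak lay beside a narrow one, here or at Tpm2, was not examined. No strong peak lay inside Myl9. The region near it that was strong in all libraries lay 43172 bp away inside Dlgap4, with a fold of 5.83 in Sod2-/- cells and 8.72 in the control, and 7.35 with rotenone and 8.10 with vehicle. Start peaks wider in both comparisons made up 7.84% of all gene starts with a peak in all 4 libraries, and 3 of the 8 genes here, Tpm2, Myl9 and Actn4.

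Calponins and transgelin coat actin filaments and are used as markers of smooth muscle and of activated fibroblasts. Cnn1, which encodes calponin 1, had a start peak with a fold of 3.80 in Sod2-/- cells and 3.20 in the control, and 5.15 with rotenone and 4.33 with vehicle. The vehicle value exceeded the Sod2-/- value, and vehicle and control were farther apart in fold than the libraries of either comparison. Only the rotenone peak was strong, at rank 23456. Cnn2, the gene of the more widely expressed calponin 2, had narrow start peaks of fold 2.25 in Sod2-/- cells and 2.21 in the control and no peak there with rotenone or vehicle. At Tagln, one gene end (position 45936058 of chromosome 9) had a peak with a fold of 3.41 in Sod2-/- cells and 2.76 in the control, and 3.48 with rotenone and 2.92 with vehicle. No peak lay within 250 bp of its other end in any library. A strong peak beyond the first end, at 45936890-45937251, had a fold of 6.48 in Sod2-/- cells and 7.17 in the control, and 7.0 with rotenone and 5.59 with vehicle. Cnn2 likewise had a strong region upstream in every library. This region, centred 3520 bp upstream, had a fold of 8.34 in Sod2-/- cells and 9.05 in the control, and 8.62 with rotenone and 9.94 with vehicle.

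Acta2, the gene of α-smooth muscle actin and the usual marker of the myofibroblast state, had a start peak of moderate fold in every library. Its fold was 3.40 in Sod2-/- cells and 4.41 in the control, and 3.81 with rotenone and 3.91 with vehicle. None of these peaks was strong, with ranks of 51234 in Sod2-/- cells and 43453 in the control, and 49106 with rotenone and 61514 with vehicle. A strong peak was centred 10497 bp upstream of the start instead, at chromosome 19, 34265579-34266162. It had a fold of 7.37 in Sod2-/- cells and 6.53 in the control, and 6.72 with rotenone and 7.35 with vehicle. The other 4 regions near Acta2 lay at neighbouring genes, 1 of them centred 74 bp from the start of Fas, 1 inside Fas and 2 inside Stambpl1.

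Srf itself had a strong start peak in all 4 libraries. Its fold was 5.89 in Sod2-/- cells and 5.09 in the control, and 5.77 with rotenone and 6.08 with vehicle, so in fold the comparisons differed in direction. By rank they did not, at 6849 in Sod2-/- cells and 20096 in the control, and 8578 with rotenone and 15330 with vehicle. The peak covered both CArG boxes of the Srf promoter in each library. A second strong peak inside Srf, centred 3043 bp downstream of the start, was lower in both comparisons, at 4.31 in Sod2-/- cells and 7.03 in the control, and 5.34 with rotenone and 6.29 with vehicle.

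Because the lists differ in length, each start peak was also placed among all 17491 gene starts of its own library, from the top by −log10 p, so that every library ranks the same genes. Actn4 stood in the top 16.7% in Sod2-/- cells and 46.2% in the control, and in the top 19.1% with rotenone and 41.3% with vehicle. Tpm1 stood at 24.1% in Sod2-/- cells and 47.4% in the control, and at 31.2% with rotenone and 43.4% with vehicle. Acta2 stood at 41.3% in Sod2-/- cells and 40.2% in the control, and at 41% with rotenone and 44.9% with vehicle, so with rotenone it was nearer the top although its fold was lower. Srf stood nearer the top in both comparisons, at 14% in Sod2-/- cells and 27.6% in the control, and at 16.9% with rotenone and 23.2% with vehicle. Actn1 stood between 16.2% and 19.5% in all 4 libraries. In Sod2-/- cells 6 of the 9 genes (Tpm1, Tpm2, Cnn1, Myl9, Actn4 and Srf) stood at least 10 percentage points nearer the top than in the control, as did 10% of all 11192 gene starts with a peak in any library. With rotenone 4 genes did so relative to vehicle, against 8.95% of all. Those 4 genes, Tpm1, Tpm2, Cnn1 and Actn4, did so in both comparisons, against 2.64% of all starts. Moves of this size away from the top were seen at 0 of the 9 genes in either comparison, against 13.1% of all starts in Sod2-/- cells, 12.9% with rotenone and 5.16% in both. Placed by fold in place of −log10 p, 4 genes again stood nearer the top in both comparisons, against 3.4% of all starts. Myl9 was at the limit in Sod2-/- cells over the control, at 10.1 points by −log10 p and 9.8 by fold. The genes and the other starts were not matched for their place in the control or vehicle library. Among the 295 starts of the genome that stood nearer the top in both, 1.69% hold an exact CArG box, against 1.31% of all starts with a peak, and 8.14% hold an exact or looser one, against 8.56% of all.

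Vehicle and control differ in neither Sod2 nor rotenone, and 1 move between them reached 10 percentage points. Of the 9 starts, 0 stood 10 percentage points nearer the top with vehicle (4.76% of all starts) and 1 stood that much farther from it (6.31% of all), namely Cnn2, which has no start peak with vehicle. For the other 8 genes vehicle stood between 6.9 points nearer the top, at Cnn1, and 4.7 points farther from it, at Acta2, where this move exceeded that of either other comparison. Tpm1 and Actn4 stood 4.0 and 4.9 points nearer the top with vehicle than in the control. Their moves were 23.2 and 29.6 points for Sod2-/- over control, and 12.2 and 22.2 for rotenone over vehicle. At Cnn1 the 6.9 points stand beside 11.3 for Sod2-/- over control and 11.8 for rotenone over vehicle. At Tpm2 vehicle stood 0.5 points nearer the top than the control, beside 12.6 and 17.1 in the same order.

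**Figure D3:**
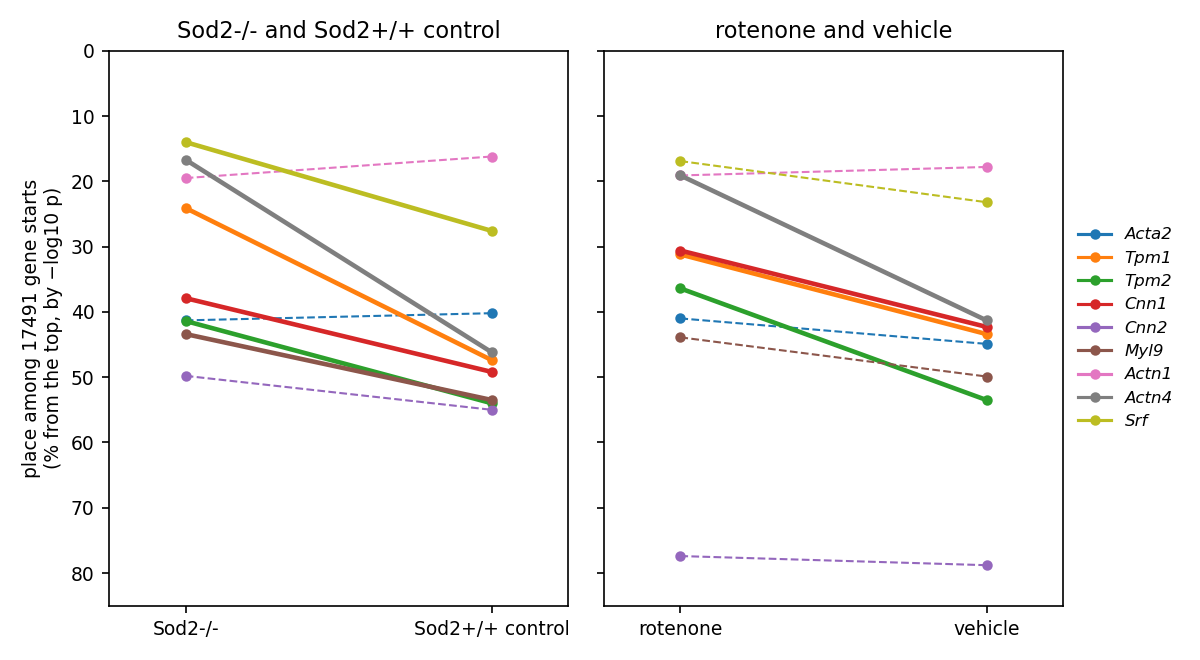
Place of each start peak among 17491 gene starts of the same library (y axis, percent from the top by −log10 p, inverted) for Sod2-/- and control (left) and rotenone and vehicle (right); solid lines mark moves of at least 10 percentage points. Actn4, Tpm1, Tpm2 and Cnn1 are solid in both panels, and Actn1 stays nearly level.

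Strong peaks were found near all 10 genes except Tpm1 with vehicle, and many lay at neighbouring genes. There were 41 strong peaks in Sod2-/- cells and 36 in the control, and 43 with rotenone and 34 with vehicle. As a share of all peaks near these genes this was 9.67% in Sod2-/- cells (95% Wilson interval 7.21 to 12.9, counting error only) and 9% in the control (6.57 to 12.2), and 14.2% with rotenone (10.7 to 18.6) and 10.5% with vehicle (7.63 to 14.3). The strong share of each whole list, set by its length, was 5.13% in Sod2-/- cells, 6.93% in the control, 8.63% with rotenone and 8.82% with vehicle. The intervals treat peaks as independent, and the strong share near other genes is not given, so no enrichment can be read from these values. A strong peak lay within 1000 bp of the start (for Tagln, of either gene end) at 5 genes in Sod2-/- cells and 3 in the control, and at 6 with rotenone and 4 with vehicle. Tpm2 counted with vehicle only, through the region inside the gene. That region was strong in all libraries and reached the window where it was widest, at 430 bp. Over all gene starts this held for 37.3% in Sod2-/- cells and 37% in the control, and for 37.8% with rotenone and 37% with vehicle. Merged over the libraries the strong peaks formed 57 regions, of which 17 lay inside the gene itself, 19 inside another protein-coding gene and 21 outside protein-coding genes. Gene starts of neighbours, within 1000 bp, accounted for 14 regions and starts of the 10 genes for 5. Actn4 and Actn1, which are the longest of the 10, held 7 and 5 regions inside the gene, Tpm1 and Srf 2 each and Tpm2 1, while Acta2, Tagln, Cnn1, Cnn2 and Myl9 held none.

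Of the 57 regions, 26 were strong in all 4 libraries, against 46.1% of the 42457 merged regions of the genome. Sod2-/- and rotenone alone shared 5, against 6.18% of all. These were the start and the internal region of Tpm1, the start of Actn4, a region inside Actn1 and a region 46465 bp from Cnn1. Control and vehicle alone shared 1, against 7.52% of all, inside Actn4. The Actn1 region, at chromosome 12, 80229060-80229322, lay 31172 bp downstream of the start and had a fold of 4.39 in Sod2-/- cells and 3.29 in the control, and 4.69 with rotenone and 3.64 with vehicle. At Tpm1, 0 of 4 regions were strong in all libraries. Actn4 had 5 that were, Acta2, Tagln, Tpm2, Cnn1, Cnn2 and Actn1 3 each, Srf 2 and Myl9 1. Another 18 regions were strong in 1 library only, against 23.8% of all merged regions. They were 5 in Sod2-/- cells and 3 in the control, against 6.51% and 4.72% of all, and 7 with rotenone and 3 with vehicle, against 7.07% and 5.49%.

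**Figure D4:**
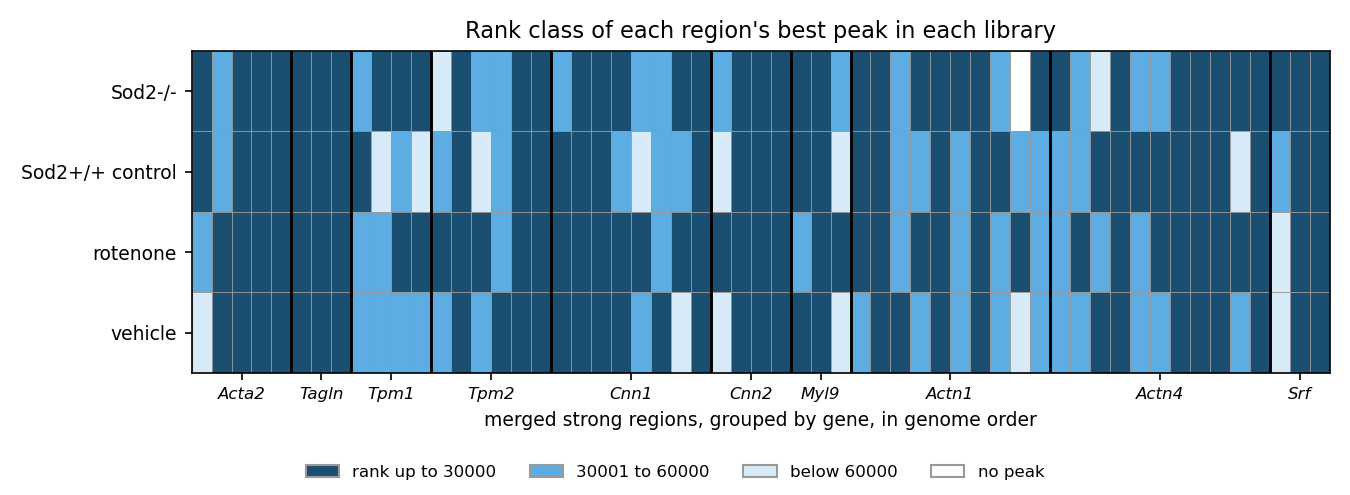
Rank class (colour) of the best peak overlapping each of the 57 merged strong regions (columns, grouped by gene) in the 4 libraries (rows). The 3 columns of Tagln are darkest in every library, while the last 2 of Tpm1 are darkest in Sod2-/- cells and with rotenone only.

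A strong peak was called gained when the partner library had no peak among its own 60000 strongest that overlapped it by 1 bp or more, and lost in the reverse case. In Sod2-/- cells 3 of 41 strong peaks near these genes were gained, against 5.33% of all strong peaks, and 1 of 36 control peaks was lost, against 6.76%. With rotenone 4 of 43 were gained, against 6.81%, and 0 of 34 vehicle peaks were lost, against 8.04%. The gained shares are near the background, and the lost counts are too small to be read against it. Vehicle over control gave 0 gained of 34, against 1.03%, and 1 lost of 36, against 0.847%. The lost one lay inside Stambpl1, 45052 bp from Acta2, with a fold of 3.73 with vehicle and 5.35 in the control.

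The gained peaks of the Sod2-/- library lay mostly at gene starts, which the counts above do not show. Of the 4 genes with a strong start peak in Sod2-/- cells, Tpm1, Actn1, Actn4 and Srf, the peaks of Tpm1 and Actn4 were gained, against 0.841% of 5943 strong start peaks. The Tpm1 call was lost with lists of 15000 or 60000 strongest peaks in place of 30000, the Actn4 call with lists of 60000, and both when the whole control list was searched. Neither was gained with rotenone, because the vehicle peaks at these starts ranked among the 60000 strongest. With rotenone 0 of 5 strong start peaks were gained, against 1.08% of all. Both starts were strong in Sod2-/- cells and with rotenone and in neither other library, a pattern of 3.53% of the 6970 starts strong in any library. The reverse pattern, in 3.54% of them, was seen at 0 of the 5 genes with a strong start peak. Lost start peaks numbered 0 of 2 both in Sod2-/- cells and with rotenone, against 1.31% and 1.35% of all, and vehicle over control gave 0 of 2 gained and 0 of 2 lost, against 0.118% and 0.0502%. The third gained peak in Sod2-/- cells, 82 bp wide, lay 21281 bp from Tpm1. The lost one lay near the downstream end of Actn4, at chromosome 7, 28893754-28893900. There the fold was 2.94 in Sod2-/- cells and 5.52 in the control, and 3.67 with rotenone and 7.83 with vehicle. The other strong regions inside Actn4 were also lower in both comparisons, except that at 28925304-28925656. Its fold was 6.02 in Sod2-/- cells and 5.83 in the control, and 7.62 with rotenone and 9.28 with vehicle. Strong peaks as a whole had a lower median fold in both comparisons too, so a lower peak is not particular to this end of Actn4.

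The 4 peaks gained with rotenone lay 31551 to 46463 bp from Cnn1, Cnn2, Myl9 and Actn1 and were narrow, with 3 of the 4 under 100 bp. Over the genome 30.6% of the peaks gained with rotenone were under 100 bp wide, against 6.37% of all strong rotenone peaks. The highest of them, 84 bp wide near Cnn1, had a fold of 7.32 with rotenone and 3.19 with vehicle, and 4.42 in Sod2-/- cells and 4.29 in the control. Near Cnn2 the gained peak, 167 bp wide and inside Arid3a, had a fold of 4.76 with rotenone and 3.81 with vehicle.

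Other genes of actin, myosin and SRF/MRTF biology were examined as a list of 38. Regions near them went both ways. In Sod2-/- cells 7 of the 38 had a gained region inside the gene or within 50000 bp, against 11% of all protein-coding genes, and 10 had a lost one, against 14.7%. With rotenone 8 had a gained region, against 13.8%, and 10 a lost one, against 17.4%. Vehicle over control gave 1 gene with a gain, against 2.8%, and 3 with a loss, against 2.07% (Cfl1 gained, and Mylk, Pdlim7 and Itgb1 lost). Genes were not matched for length, and a long gene has more room for such regions. Among the 10 contractile genes the counts were 2 with a gain and 1 with a loss in Sod2-/- cells, and 4 and 0 with rotenone.

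Lmod1, which encodes leiomodin 1, a nucleator of actin filaments in smooth muscle, gained the same internal region in both comparisons, at chromosome 1, 135359101-135359265 in the Sod2-/- library. Its fold was 5.41 in Sod2-/- cells and 2.98 in the control, and 7.93 with rotenone and 2.87 with vehicle. Mrtfb, the gene of an SRF cofactor, gained a region 20594 bp from the gene in both, with folds of 4.68 in Sod2-/- cells and 3.14 in the control, and 5.64 with rotenone and 3.63 with vehicle. A region inside Mrtfb went the other way, called lost with rotenone only, with folds of 3.31 in Sod2-/- cells and 5.29 in the control, and 3.32 with rotenone and 6.41 with vehicle. Palld, the gene of the actin-bundling protein palladin, lost the same internal region in both. There the fold was 2.92 in Sod2-/- cells and 7.35 in the control, and 2.55 with rotenone and 7.65 with vehicle. Itga5, which encodes a subunit of the fibronectin receptor, lost a region in both as well, with folds of 2.96 in Sod2-/- cells and 6.24 in the control, and 2.65 with rotenone and 7.92 with vehicle. Myocd, the gene of the muscle-enriched SRF cofactor myocardin, lost 2 internal regions in Sod2-/- cells, with folds of 3.05 and 2.82 there against 5.71 and 5.45 in the control. These regions were not called with rotenone, where the folds were 3.68 and 3.50, against 5.51 and 5.21 with vehicle.

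By the counts of start peaks higher or lower in fold, this list was nearer the whole genome than the 10 genes were. Its median start fold was instead higher in both comparisons, as was that of the 8 contractile genes with a start peak in every library, and unlike all starts. The median of the list was 5.80 in Sod2-/- cells and 5.55 in the control, and 6.50 with rotenone and 5.76 with vehicle. A median of the set does not follow single genes, more of which were lower than higher in both comparisons. Of 24 genes with a start peak in all 4 libraries, 5 had a higher fold in both comparisons (Cald1, Pdlim7, Ppp1r12a, Smtn and Vim) and 13 a lower one, which is 20.8% and 54.2%. Ppp1r12a and Smtn had no gained or lost region and are named after their values were seen. Of 26 genes of the list with a start peak in any library, 4 stood at least 10 percentage points nearer the top in Sod2-/- cells. That many points farther from it stood 0, against 10% and 13.1% of all starts. With rotenone 3 stood nearer and 1 farther, against 8.95% and 12.9%. Cald1, the gene of the actin- and myosin-binding protein caldesmon, was the only one of the list to stand at least 10 percentage points nearer the top in both comparisons. Its start peak had a fold of 6.61 in Sod2-/- cells and 5.23 in the control, and 8.50 with rotenone and 6.22 with vehicle. Other regions of Cald1 went both ways. An internal region was called lost in Sod2-/- cells, with folds of 2.66 there and 5.57 in the control. A region 5157 bp from the gene was called lost with rotenone, at 3.18 against 5.81 with vehicle. Another internal region was called gained with rotenone, at 5.01 against 3.11 with vehicle. Mrtfa encodes the main SRF cofactor of fibroblasts. Its start peak had the highest fold of the list in every library but rotenone, where that of Vcl was higher. By −log10 p it was not first of the list in any library. The fold of Mrtfa was lower in both comparisons, at 10.7 in Sod2-/- cells and 13.5 in the control, and 11.8 with rotenone and 14.0 with vehicle.

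Markers of the labelled cell type and of others were checked by whether a strong peak lay inside the gene or within 1000 bp. Of 12 dermal fibroblast markers this held for 6 in Sod2-/- cells and 8 in the control, and for 6 with rotenone and 7 with vehicle. Pdgfra, Dcn, Fbn1, Prrx1, Fn1 and Col1a2 had one in every library, and Col1a1, Col3a1, Lum and Thy1 in none. Of 8 smooth muscle and pericyte markers, cells that use many of the same contractile genes, it held for 3 in Sod2-/- cells and 4 in each other library. Of 5 keratinocyte markers it held for 4 in Sod2-/- cells and 4 in the control, and for 3 with rotenone and 3 with vehicle. Of 5 endothelial markers the counts were 2 and 1, and 3 and 1, in the same order of libraries. They were 0 and 2, and 1 and 2, of 5 myeloid markers, 1 and 2, and 1 and 2, of 5 skeletal muscle markers, and 3 and 2, and 2 and 2, of 5 melanocyte markers. Over all protein-coding genes the share was 50.9% in Sod2-/- cells and 50.4% in the control, and 51.6% with rotenone and 50.7% with vehicle, so this measure does not tell cell types apart, and their part in the differences above was not tested.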

How the data were processed

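ATAC-seq of dermal fibroblasts was analysed with 1 library in each of 4 groups. Per the labels' protocols, lysed cells were tagmented with Tn5 and sequenced in paired ends. Bowtie2, MACS2, bedtools, HOMER and mm10 are named in the submitters' processing notes. How they were set, and whether reads were shifted for Tn5, is not given in the sources used here. Each library has 1 headerless list of peaks, called separately, as the authors deposited it. The fold enrichment (a ratio), −log10 p, −log10 q and score of a peak are the authors' values, with columns taken in the order that MACS2 uses for broad peaks. The lists reach down to a −log10 q just above 1. Depth is unknown, since no read count was analysed. The deposited score was not used.

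Starts were converted to 1-based mm10 positions. Peaks were ranked by −log10 p, ties by fold, and the first 30000 were called strong. A start peak was the best ranked peak overlapping the RefSeq promoter window, for which the first entry of a gene was taken. Each of the 9 genes has 1 entry, and Tagln, with none, was described by its gene ends (250 bp to either side). All 10 genes are described, and of the 38 related genes some of those with a gained or lost region; 1 result is not reported here. The genes and lists were chosen with earlier results of these data known. The place among gene starts, the comparisons of start peaks by fold and width, the marker measure and the 10-point and 100 bp limits were chosen after seeing the data. Wilson intervals cover counting error only. The call of gained peaks was tested on copies of the peak lists with strong peaks removed, and the overlap search against a direct comparison. The scripts ran under Python 3.11.15 with numpy 2.4.6. Tables used pandas 2.3.3, intervals scipy 1.17.1, and plots matplotlib 3.10.9.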

Additional observations from a re-analysis of the deposited data

How the results depend on the processing

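Every group has 1 library, which leaves no replicate to omit. No paired analysis was possible because the labels give no replicate numbers and each group has 1 library. Of 89 alternative values, 47 lay within 1.5 times the reported count. The others follow.

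Strong peaks near the 10 genes numbered 21 in Sod2-/- cells and 16 in the control, and 22 with rotenone and 15 with vehicle, when lists of 15000 were used, and 79 and 78, and 76 and 72, with lists of 60000, in the same order of libraries. Within 10000 bp there were 18 and 15, and 20 and 17, and within 100000 bp 70 and 61, and 68 and 63. Of all peaks, 232 in Sod2-/- cells and 201 with rotenone had a −log10 q of at least 2. Genes with a strong peak at a gene end numbered 8 in Sod2-/- cells and 7 with vehicle with lists of 60000, and 1 with vehicle with lists of 15000, against 5 in Sod2-/- cells and 4 with vehicle at 30000.

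Sod2-/- over control gave 8 gained and 11 lost with lists of 60000, 0 lost with lists of 15000, 3 lost when 50% of the peak had to be covered, and 0 of each when the partner's whole list was searched. Rotenone over vehicle gave 2 gained and 1 lost with lists of 15000, 9 lost with lists of 60000, 1 lost when ranked by fold, 4 lost with 50% covered, 0 gained within 10000 bp, 0 gained against the whole partner list, and 1 gained among peaks of at least 100 bp, an alternative added after seeing the data. Vehicle over control gave 1 gained and 0 lost with lists of 15000, 3 gained and 2 lost with lists of 60000, 1 gained with 50% covered, 0 lost within 10000 bp and 0 lost against the whole partner list. The causes were not tested. The Actn4 start was gained in Sod2-/- cells with lists of 15000 and 30000, by either ranking and with 50% covered, but not with lists of 60000, and with rotenone it was gained with lists of 15000. The Tpm1 start was gained in Sod2-/- cells at 30000 only, by either ranking and with 50% covered. The Tpm2 start was gained in both comparisons with lists of 60000. Placing start peaks by fold in place of −log10 p, added after seeing the data, again gave 4 genes nearer the top in both comparisons.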
